A study of Danio rerio with 24 samples.

Results

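DNA methylation was described at 2 genes, alx1 and alx4b, in zebrafish neural crest cells (NCCs) and in the pigment cells that derive from them. The members were all CpGs listed on chromosome 18 of danRer10 in a 100-kb window set around each gene, and they were chosen by position, not by a measured value. The alx1 window held 1337 CpGs between positions 16205096 and 16304876, and the alx4b window held 1492 CpGs between 38286014 and 38385997. Together these were 2829 of the 23256360 CpGs listed in at least 1 of the 4 libraries. Whole-genome bisulfite sequencing (WGBS), in which each read covering a CpG is scored as methylated or not, gave 1 library per cell type, and in each library the authors had combined 2 biological replicates. Iridophores and melanophores were purified from mlphaj120 larvae at 4 to 5 days post fertilization (dpf). Late NCCs at 24 hours post fertilization (hpf) and early NCCs at 15 somites were sorted for GFP from Tg(crestinA:EGFP) embryos, in which crestin sequence drives GFP and so marks the cells where that sequence is active. Cell type, stage and strain therefore change together between NCCs and pigment cells, and their parts in a difference cannot be told apart.

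Alx proteins are homeodomain transcription factors of the aristaless family, known in vertebrates for their expression in the mesenchyme that cranial neural crest forms in the face. Iridophores are the reflective, purine-storing pigment cells of fish, and melanophores are the black, melanin-making ones. Most CpGs of a vertebrate genome are methylated, while CpG-rich promoters usually are not, and loss of methylation at a short stretch away from promoters is a common mark of enhancers that come into use. In the RefSeq gene table of another zebrafish assembly (GRCz12tu), used here for gene order alone, the nearest protein-coding neighbours of alx1 were lrriq1 and rassf9, and those of alx4b were lmo2, which encodes a LIM-domain cofactor of blood cell development, and onecut1, which encodes a transcription factor. Gene positions in danRer10 were not analysed here, so the windows are given by coordinates.

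Coverage was similar in both windows and across the genome. The mean number of reads per listed CpG at alx1 was 26.8 in iridophores, 36.8 in melanophores, 33.0 in late NCCs and 25.2 in early NCCs, and at alx4b it was 24.9, 35.1, 31.2 and 24.0 in the same order. At least 5 reads in each of the 4 libraries were found at 1057 CpGs of the alx1 window (79.1%) and 1100 CpGs of the alx4b window (73.7%), against 72.7% of all listed CpGs, and levels below use these CpGs unless stated otherwise. Replicates could not be separated. Every test therefore compares the reads of 2 pooled libraries and not the cell types, no value has a spread between replicates, and intervals cover counting error at most.

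The alx1 window was less methylated in iridophores than in the other cell types, and the alx4b window was less methylated than the genome in all of them. Mean CpG methylation at alx1 was 75.0% in iridophores, 81.7% in melanophores, 86.9% in late NCCs and 89.2% in early NCCs. At alx4b it was 64.3% in iridophores, 68.7% in melanophores, 69.8% in late NCCs and 70.9% in early NCCs. Over the whole genome the corresponding values were 80.8%, 81.2%, 84.2% and 85.1%, with the pigment cells close together. The share of alx1 CpGs above 80% methylation was 65.0% in iridophores, 76.7% in melanophores, 87.7% in late NCCs and 89.5% in early NCCs. Over the genome it was 76.1%, 77.3%, 82.2% and 82.5% in the same order. The alx4b window held more unmethylated CpGs, since 20.5% of its CpGs in iridophores, 17.9% in melanophores, 21.6% in late NCCs and 18.2% in early NCCs were below 20%. The corresponding shares were 8.88%, 8.59%, 7.98% and 7.97% over the genome, and 11.4%, 7.85%, 5.68% and 5.39% at alx1.

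To locate the differences, each window was read in tiles of 500 bp. A tile's level is the mean over its CpGs. Tiles with at least 3 CpGs were tested with two-sided Fisher's exact tests on summed reads, adjusted by the Benjamini-Hochberg method over all 1742304 tiles of the genome, and a tile was called at an adjusted p under 0.05 and a difference of at least 30 percentage points. Of the 200 tiles in a window, 127 were tested at alx1 and 123 at alx4b.

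At alx1, methylation fell in iridophores at 20 of 127 tiles relative to late NCCs (15.7%, against 2.67% of all tiles), and in melanophores at 6 tiles (4.72%, against 2.65%). Both comparisons share the late NCC library. The melanophore count was 10 with a minimum difference of 20 points and 3 with 40 points. The direct comparison called 11 tiles lower in iridophores than in melanophores (8.66%, against 0.671%) and 0 tiles higher (background 0.541%). The count of 11 was 19 with a minimum difference of 20 points. Against late NCCs, 0 tiles were higher in iridophores (background 0.0851%) and 0 in melanophores (background 0.0645%). At such low backgrounds, 0 of 127 tiles does not show a lack of rises. With a minimum of 1 read per CpG, 1 of 155 tiles was higher in iridophores than in late NCCs, and 1 higher than in melanophores. Shares of all tiles were not counted for other minimums of reads or points, so the counts under them have no background. With early NCCs as the reference, the counts were 21 tiles lower in iridophores (background 3.20%) and 8 lower in melanophores (background 3.22%). The median tile difference from late NCCs was -3.27 points in iridophores at alx1 against -2.04 points over all tiles, and -2.18 points in melanophores against -1.50 points. The calls therefore lay at a minority of the tiles, and smaller differences reached beyond them. At an adjusted p under 0.05 with no minimum difference, 51 tiles differed between iridophores and late NCCs (40.2%, against 18.6% of all tiles). Iridophores were lower at 46 of them and higher at 5. This split was not counted over the genome, where 70.5% of all tiles were lower in iridophores by any amount.

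**Figure D1:**
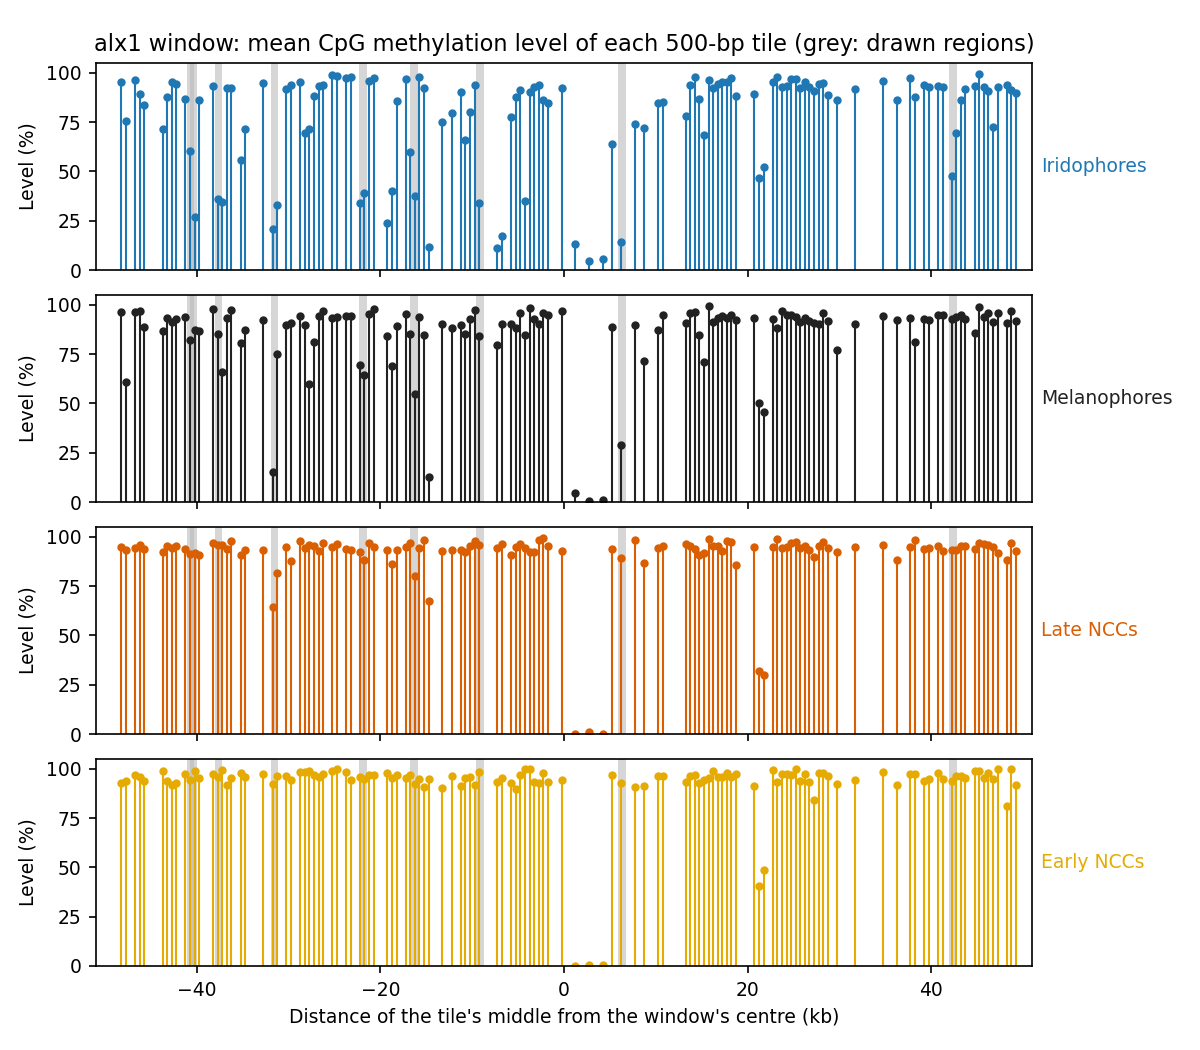
Mean CpG methylation level (%) of each tested 500-bp tile of the alx1 window against its distance from the window's centre (kb), with 1 panel per library and grey bands for the regions that the study drew at this gene. Low tiles in iridophores lie mainly to the left of the centre, where early NCCs stay above 92% at each called tile, and the 3 tested tiles just right of the centre are at 13.3% or lower in each library.

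Of the 20 alx1 tiles that were lower in iridophores than in late NCCs, 18 lay before the window's centre (67 tiles tested there) and 2 after it (60 tested). The middles of these tiles lay between -40.75 and 42.25 kb from the centre. Their median level was 34.3% in iridophores, 80.2% in melanophores, 92.2% in late NCCs and 95.5% in early NCCs.

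Within these tiles, 1 group was low in both pigment cells. At 16223001 to 16223500 (16 CpGs) the level was 20.6% in iridophores (657 reads), 15.3% in melanophores (947 reads), 64.5% in late NCCs (879 reads) and 92.4% in early NCCs (575 reads). Relative to late NCCs, melanophore methylation fell by 49.3 points (Fisher's exact test, adjusted p = 3.02e-117). At 16240001 to 16240500 (5 CpGs) the level was 11.7% in iridophores, 12.7% in melanophores, 67.3% in late NCCs and 94.7% in early NCCs, with 130 to 231 reads per library. In these 2 tiles late NCCs already lay below early NCCs, with differences of -27.8 and -27.4 points and adjusted p-values of 1.52e-40 and 2.88e-09 (exact tests), short of the 30 points required for a call. At 16240001 the iridophore minus melanophore difference was -0.96 points (exact test, adjusted p = 0.899). At 16261001 to 16261500 (4 CpGs), which the study annotated as intronic, the level was 14.0% in iridophores, 28.7% in melanophores, 89.1% in late NCCs and 92.8% in early NCCs. Melanophore methylation fell by 60.4 points here, more than at the window's other called tiles (exact test, adjusted p = 1.48e-19). The iridophore minus melanophore difference of -14.7 points was not past the threshold (exact test, adjusted p = 0.142).

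A second group was low in iridophores and more methylated in melanophores. Other called tiles were intermediate, such as 16233001 to 16233500, with 39.1% in iridophores and 64.3% in melanophores, a difference of -25.2 points that was not called. The lowest was at 16247501 to 16248000 (12 CpGs), with 11.2% in iridophores (437 reads), 79.5% in melanophores (674 reads), 94.3% in late NCCs (565 reads) and 93.5% in early NCCs (357 reads). The next tile, 16248001 to 16248500 (6 CpGs), had 17.4% in iridophores, 90.3% in melanophores, 96.3% in late NCCs and 95.4% in early NCCs. The iridophore minus melanophore differences were -68.3 and -72.8 points in these neighbouring tiles, which no drawn region covers (exact tests, adjusted p = 2.40e-112 and 1.19e-38). At 16235501 to 16236000 (6 CpGs) iridophores had 23.7%, melanophores 84.4%, late NCCs 93.3% and early NCCs 97.8%. It is followed by the most CpG-rich of the called tiles, 16236001 to 16236500 (26 CpGs, 1311 to 1795 reads per library), with 40.05% in iridophores, 69.1% in melanophores, 86.0% in late NCCs and 95.1% in early NCCs. In this CpG-rich tile the iridophore minus melanophore difference of -29.0 points fell short of a call, and the melanophore minus late NCC difference was -17.0 points. The 2 tiles also lie outside the drawn regions. At 16250501 to 16251000 (5 CpGs) iridophores had 34.8%, melanophores 84.7%, late NCCs 94.5% and early NCCs 100%. Of the 20 iridophore tiles, 7 lay outside the drawn regions. Of the 127 tested tiles, 14 overlapped a drawn region, and 13 of these 14 were called, which is a description, since most of these regions were chosen for this fall.

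No alx1 tile was called lower in melanophores than in iridophores. At an adjusted p under 0.05 with no minimum difference, 37 tiles differed between them (29.1%, against 9.03% of all tiles). Iridophores were lower at 29 of these tiles and higher at 8. This split was not counted over the genome, where 55.3% of all tiles were lower in iridophores by any amount. At 16227001 to 16227500 (15 CpGs) the level was 71.3% in iridophores, 59.7% in melanophores, 96.1% in late NCCs and 99.0% in early NCCs. At 16207001 to 16207500 (9 CpGs) it was 75.5% in iridophores, 60.7% in melanophores, 93.5% in late NCCs and 93.9% in early NCCs. In melanophores methylation fell by 36.4 and 32.8 points relative to late NCCs, and in iridophores neither tile was called. The direct iridophore minus melanophore differences were 11.6 and 14.8 points, short of a call. The remaining melanophore call, 16217501 to 16218000, had 34.5% in iridophores and 65.8% in melanophores, and so was lower still in iridophores.

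The study had drawn 9 regions at alx1. A differentially methylated region (DMR) rests on WGBS, a differentially accessible region (DAR) on chromatin accessibility, and a DMAR on both; "solo" marks a region called by 1 assay. There were 3 DMARs, 4 solo DMRs and 2 solo DARs, 8 of them intergenic and 1 intronic, numbered here by position. Those called on methylation were chosen for a fall between late NCCs and iridophores in these same libraries, so that difference is given as a description. The comparison of melanophores with early NCCs uses neither of these libraries.

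Across the 9 regions the median of the mean CpG levels was 26.5% in iridophores, 73.3% in melanophores, 91.7% in late NCCs and 95.3% in early NCCs. The values given below for each region are instead shares of methylated reads, which can differ from the level. In iridophores region 2 had a level of 26.5% and 18.4% methylated reads. Melanophores were below early NCCs in 9 of 9 regions by Newcombe 95% intervals of the share of methylated reads, with a median difference in level of -22.5 points, and the level was lower by at least 30 points in 3 regions, numbers 4, 6 and 8. Over the genome, 73.2% of tiles were lower in melanophores than early NCCs and 22.1% differed at an adjusted p under 0.05 in either direction, although tiles and regions differ in length. Region 4 (16223065 to 16223796, DMAR, 22 CpGs) had 24.7% methylated reads in iridophores, 27.8% in melanophores, 68.5% in late NCCs and 93.8% in early NCCs, and its melanophore minus early NCC difference was -66.0 points (interval -68.9 to -62.7). Region 6 (16238554 to 16238812, solo DAR, 5 CpGs) had 21.1% in iridophores, 40.7% in melanophores, 69.4% in late NCCs and 90.1% in early NCCs. Region 8 is the intronic solo DMR (16261127 to 16261534, 4 of its 7 CpGs with enough reads), with 13.9% in iridophores, 28.8% in melanophores, 88.3% in late NCCs and 92.5% in early NCCs.

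The other 6 alx1 regions kept most of their methylation in melanophores. Region 9 (16297168 to 16297619, solo DMR, 11 CpGs) was the extreme case, with 40.9% methylated reads in iridophores, 91.1% in melanophores, 93.1% in late NCCs and 95.7% in early NCCs. Region 2 (16214467 to 16214796, DMAR, 8 CpGs) had 18.4% in iridophores and 86.2% in melanophores, and region 7 (16245773 to 16245945, solo DMR, 5 CpGs) had 24.0% and 82.5%. Region 3 (16217119 to 16217610, solo DMR, 14 CpGs) had 29.4% in iridophores and 74.5% in melanophores. Region 5 (16232769 to 16233408, DMAR, 17 CpGs) was intermediate, with 33.6% in iridophores and 63.9% in melanophores. Region 1 (16214171 to 16214298, solo DAR) rests on 1 CpG with enough reads, with 17.6% in iridophores (51 reads, Wilson 95% interval 9.57 to 30.3%) and 73.3% in melanophores (45 reads, 59.0 to 84.0%). In these 6 regions late NCCs lay between 91.3% and 95.8% and early NCCs between 95.7% and 99.2%.

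**Figure D2:**
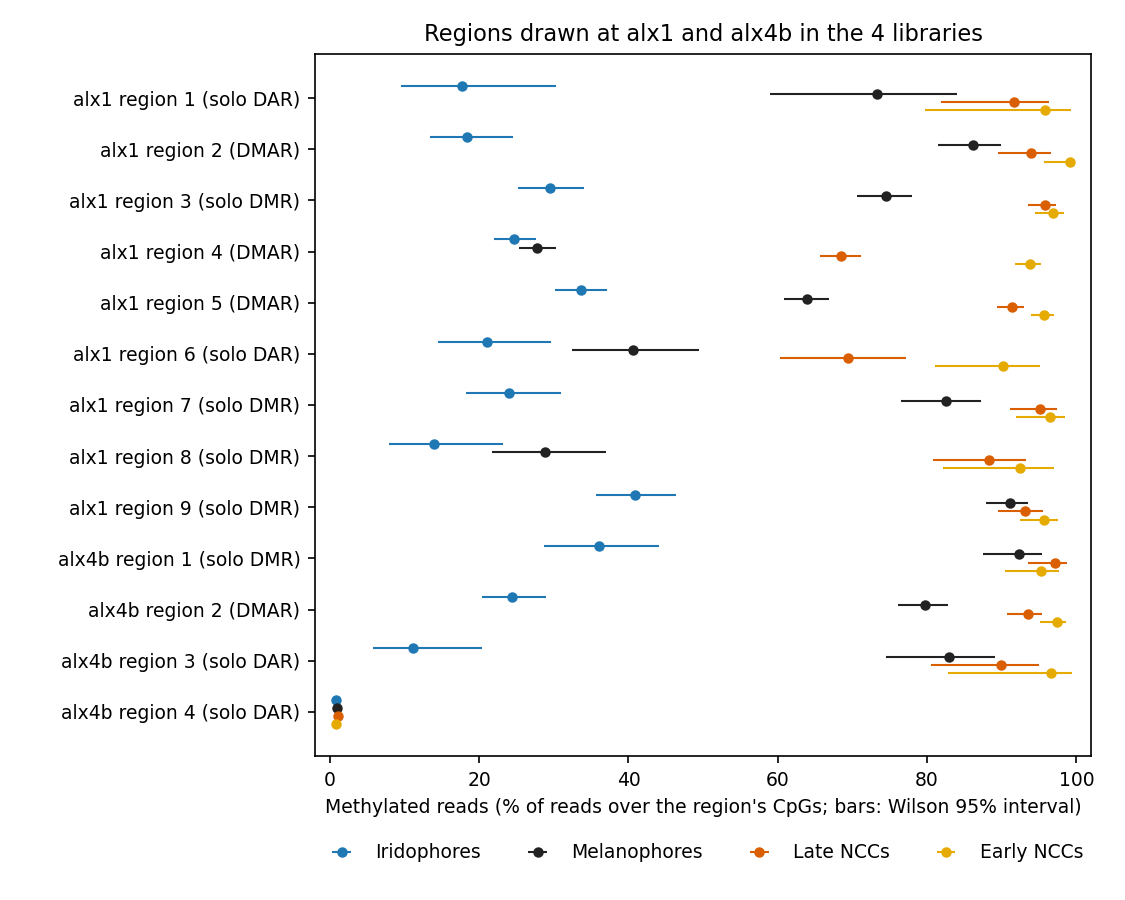
Share of methylated reads (%) over the CpGs of each of the 13 regions drawn at alx1 and alx4b, with Wilson 95% intervals for counting error. Iridophores lie at 40.9% or lower in every region, while melanophores range from 27.8% to 92.3% except in alx4b region 4, which is near 1% in all 4 libraries.

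Within region 4, the first CpG, at 16223065, had 75% in iridophores (16 reads) and 76.9% in melanophores (13 reads). The CpGs from 16223163 to 16223428 were low in both pigment cells, and most of those further right were lower in iridophores. At position 16223428 the level was 12.8% in iridophores, 5.95% in melanophores, 49.1% in late NCCs and 97.6% in early NCCs, on 41 to 84 reads. At 16223512 it was 20% in iridophores, 50.7% in melanophores, 86.7% in late NCCs and 97.4% in early NCCs, while at 16223553 both pigment cells were high, with 83.1% in iridophores, 89.1% in melanophores, 98.5% in late NCCs and 97.1% in early NCCs. At 16223711, near the end of the region, it was 16.7% in iridophores, 95.2% in melanophores, 92.9% in late NCCs and 100% in early NCCs, on 8 to 21 reads. The tile test covers the same positions. In 16223501 to 16224000 (9 CpGs) iridophores had 33.1% and melanophores 75.1%, a called difference of -42.0 points (exact test, adjusted p = 8.57e-20), whereas in the tile before it iridophores were 5.36 points above melanophores. In region 3 melanophores were instead higher at the left than further right, though unevenly. They had 97.2% at 16217258 and 40.4% at 16217522, where iridophores had 30.6% and 25.8%. Between these CpGs melanophores had 65.7% at 16217440 and 96.2% at 16217483. The first CpG of region 2, at 16214467, had 90.9% in iridophores as in melanophores, on 11 reads each. At the next CpG, 16214576, iridophores had 14.7% (34 reads) and melanophores 86.5% (37 reads). Other regions were low up to an outer CpG, such as the first of region 8, at 16261127, with 16.7% in iridophores (12 reads).

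Just after the centre of the alx1 window lay a long unmethylated stretch. It spanned 3772 bp and 101 listed CpGs from 16255752 to 16259523, each below 20% over the 2 NCC libraries together. Over all its listed CpGs, methylated reads made up 8.74% in iridophores (Wilson 95% interval 7.64 to 9.99%), 1.72% in melanophores (1.32 to 2.25%), 0.543% in late NCCs (0.324 to 0.909%) and 0.601% in early NCCs (0.327 to 1.10%). The iridophore minus melanophore difference was 7.02 points (Newcombe interval 5.80 to 8.33). Iridophores were thus more methylated over the stretch as a whole, but by less than the 30 points of a call. The gap exceeded 30 points in the tile starting at 16256501, which was not tested. The study reports slightly incomplete bisulfite conversion, so the lowest of these shares can include unconverted cytosines. Differences among those lowest shares were not tested.

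The methylated reads of iridophores were unevenly spread over this stretch. In the tile starting at 16255501 they were 33 of 115 reads in iridophores (28.7%), 15 of 170 in melanophores (8.82%), 0 of 101 in late NCCs and 0 of 98 in early NCCs. At 16256001 they were 43 of 249 in iridophores (17.3%), 15 of 311 in melanophores (4.82%), 1 of 292 in late NCCs and 0 of 204 in early NCCs. At 16256501 they were 31 of 79 in iridophores (39.2%), 3 of 123 in melanophores (2.44%), 0 of 77 in late NCCs and 1 of 9 in early NCCs. In the better covered tiles further on, at 16257501 and 16259001, iridophores had 4.17% and 5.14%, and melanophores 0.792% and 0.822%. Of the 101 CpGs, 58 had at least 5 reads in every library, and in the 3 tested tiles the adjusted p of the exact test for iridophores against melanophores was 1.35e-04 at 16256001, 4.31e-04 at 16257501 and 1.29e-07 at 16259001. The tile at 16256501 held 0 CpGs with enough reads and was not tested.

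**Figure D3:**
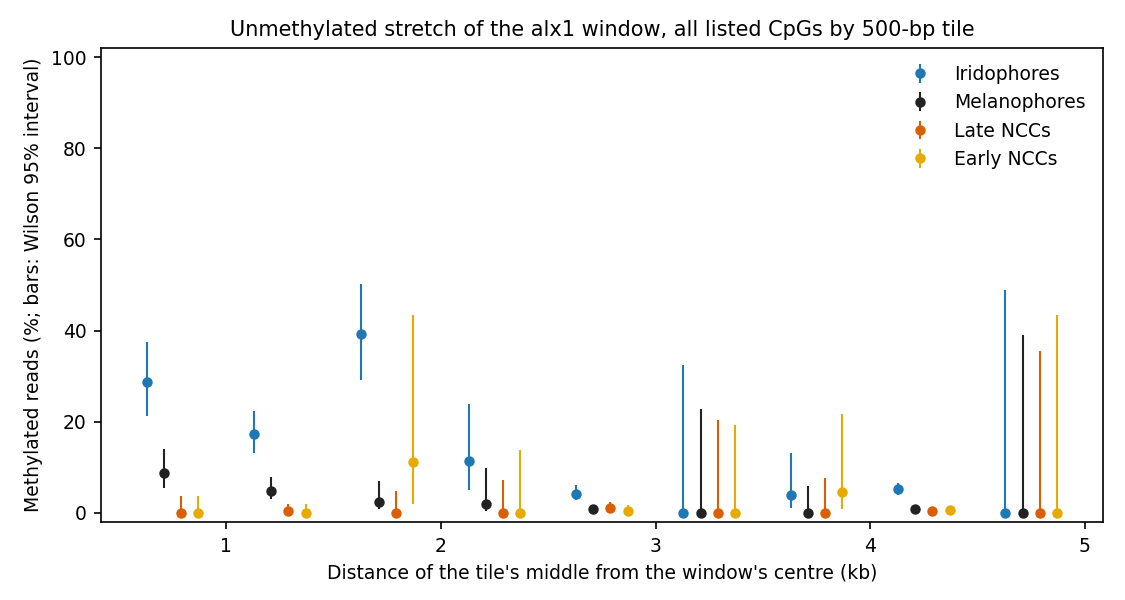
Methylated reads (%) in each 500-bp tile of the unmethylated stretch right of the alx1 window's centre, over all listed CpGs, against the distance from that centre (kb), with Wilson 95% intervals. Iridophores stand above the other libraries in the first 3 tiles, at 28.7%, 17.3% and 39.2%, and late NCCs have 1 methylated read there.

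At alx4b the balance between the pigment cells was similar, and methylation was also gained in iridophores at a few tiles. Relative to late NCCs, 16 of 123 tiles fell in iridophores (13.01%, background 2.67%) and 4 in melanophores (3.25%, background 2.65%). Iridophores were lower than melanophores at 12 tiles (9.76%, background 0.671%) and higher at 0 (background 0.541%). With at least 10 reads required per CpG, the counts below late NCCs and below melanophores were 10 and 6 of the 103 tiles then tested. Against late NCCs, 3 tiles were higher in iridophores (2.44%, background 0.0851%) and 0 in melanophores (background 0.0645%). At such low backgrounds, 0 of 123 tiles does not show a lack of such tiles. With a minimum difference of 20 points, 1 tile was higher in iridophores than melanophores, and 1 higher in melanophores than late NCCs. Shares of all tiles were not counted for these other minimums of reads or points. Against early NCCs, 16 tiles were lower in iridophores (13.01%, background 3.20%) and 4 in melanophores (3.25%, background 3.22%), so the melanophore share was near the background. The median tile difference from late NCCs was -3.45 points in iridophores against -2.04 points over all tiles, and -1.24 points in melanophores against -1.50 points. At an adjusted p under 0.05 with no minimum difference, 53 tiles differed between iridophores and late NCCs (43.1%, against 18.6% of all tiles). Iridophores were lower at 44 of them and higher at 9. This split was not counted over the genome, where 70.5% of all tiles were lower in iridophores by any amount.

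**Figure D4:**
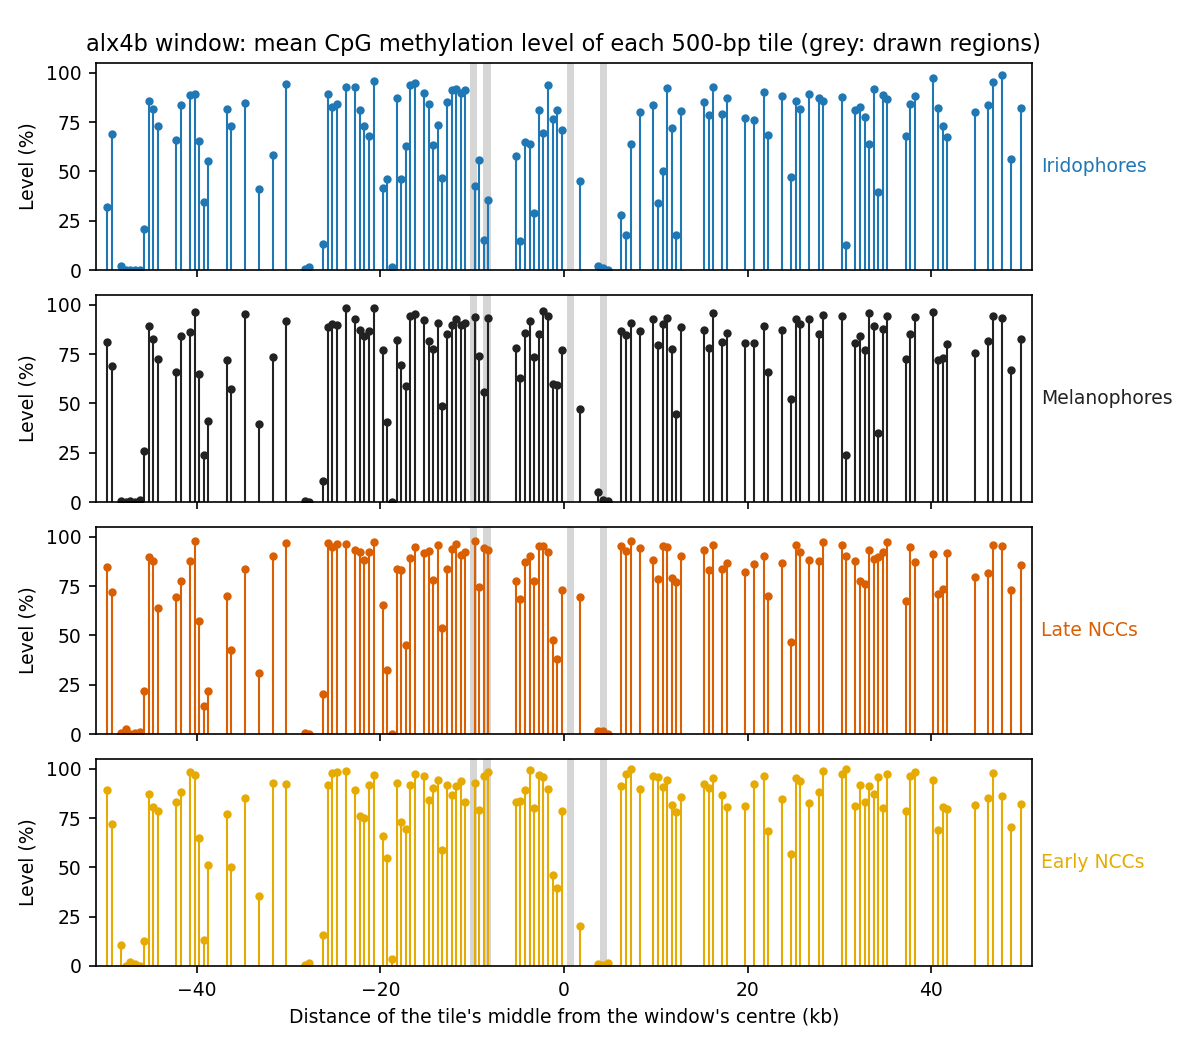
Mean CpG methylation level (%) of each tested 500-bp tile of the alx4b window against its distance from the window's centre (kb), with 1 panel per library and grey bands for drawn regions. Tile levels run from 0% to at least 97.9% in each library, and the tiles low in iridophores but not in NCCs lie on both sides of the centre.

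The 16 iridophore tiles were split evenly by the centre, 8 before it and 8 after it, and 13 of them lay outside the drawn regions. Of the 123 tested tiles, 6 overlapped a drawn region, and 3 of these 6 were called. The median level of the 16 tiles was 33.0% in iridophores, 76.7% in melanophores, 90.1% in late NCCs and 92.8% in early NCCs. A pair of neighbouring tiles after the centre showed the widest gap between the pigment cells. At 38342501 to 38343000 (3 CpGs) the level was 17.6% in iridophores (113 reads), 84.9% in melanophores (156 reads), 92.9% in late NCCs (154 reads) and 97.2% in early NCCs (150 reads). At 38342001 to 38342500 (5 CpGs) it was 27.97% in iridophores, 86.7% in melanophores, 95.2% in late NCCs and 91.4% in early NCCs. The iridophore minus melanophore differences were -67.3 and -58.7 points (exact tests, adjusted p = 8.57e-31 and 2.76e-36).

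At the far left end of the window, 38286001 to 38286500 (12 CpGs, 392 to 707 reads per library) had 32.1% in iridophores, 81.0% in melanophores, 84.7% in late NCCs and 89.3% in early NCCs. Its iridophore minus melanophore difference was -48.9 points (exact test, adjusted p = 5.88e-91). Closer to the centre, 38332501 to 38333000 (10 CpGs) had 28.8% in iridophores, 73.5% in melanophores, 77.4% in late NCCs and 80.3% in early NCCs. The tile at 38348001 (5 CpGs) fell in both pigment cells, with 17.7% in iridophores, 44.5% in melanophores, 77.3% in late NCCs and 78.0% in early NCCs.

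Both pigment cells were low at 2 further tiles towards the right end of the window. At 38366501 to 38367000 (5 CpGs) the level was 12.7% in iridophores, 23.7% in melanophores, 90.1% in late NCCs and 100% in early NCCs. Melanophore methylation fell by 66.4 points relative to late NCCs (exact test, adjusted p = 2.71e-25), more than at the window's other 3 called tiles. At 38370001 to 38370500 (5 CpGs) iridophores had 39.5%, melanophores 34.8%, late NCCs 89.5% and early NCCs 95.8%, and the pigment cells did not differ past the threshold (4.67 points, exact test, adjusted p = 0.705). Neither tile overlapped a drawn region.

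**Figure D5:**
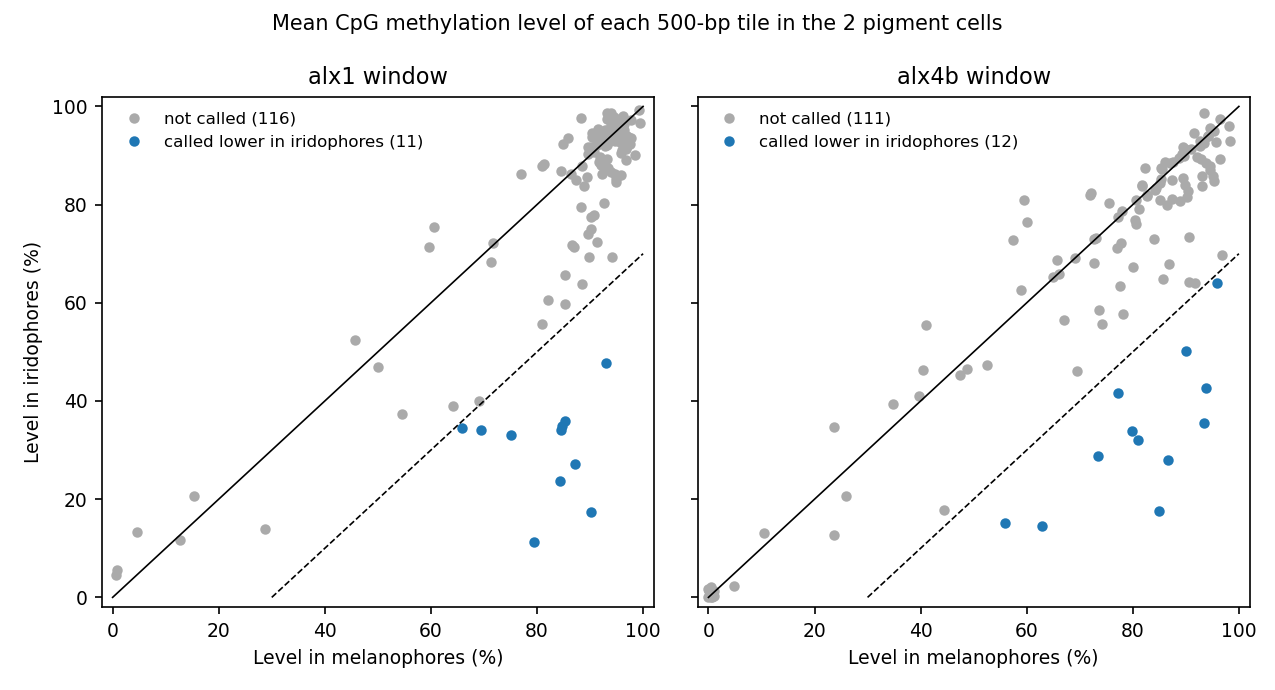
Level in iridophores (%) against level in melanophores (%) for each tested tile of the alx1 window (127 tiles) and the alx4b window (123 tiles), with the line of equal levels and a dashed line 30 points below it. The 11 and 12 called tiles lie below the dashed line, and 0 tiles were called on the other side (0.541% of all tiles).

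The study had drawn 4 regions at alx4b: 1 solo DMR, 1 DMAR and 2 solo DARs, of which 3 were intergenic and 1 exonic. Region 1 (38325970 to 38326292, solo DMR) had 36.1% methylated reads in iridophores, 92.3% in melanophores, 97.2% in late NCCs and 95.2% in early NCCs. Region 3 (38336808 to 38336924, solo DAR, 2 CpGs) had 11.1% in iridophores (72 reads, interval 5.74 to 20.4%), 83.0% in melanophores (100 reads), 89.9% in late NCCs (69 reads) and 96.6% in early NCCs (29 reads), although it was chosen on accessibility. In melanophores, regions 1 and 3 differed from early NCCs by -2.97 points (interval -8.38 to 2.68) and -13.6 points (-22.6 to 1.47), so a difference was not detectable at this depth.

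Region 2 (38327186 to 38328030, DMAR, 12 of 14 CpGs with enough reads) was lower in melanophores at its left than at its right. As a whole it had 24.4% methylated reads in iridophores, 79.7% in melanophores, 93.5% in late NCCs and 97.4% in early NCCs. Its first tile, 38327001 to 38327500 (6 CpGs), had 15.2% in iridophores, 55.9% in melanophores, 94.1% in late NCCs and 96.1% in early NCCs. In the second tile, 38327501 to 38328000 (6 CpGs), iridophores had 35.5%, melanophores 93.5%, late NCCs 93.3% and early NCCs 98.5%. Melanophore methylation thus fell by 38.3 points in the first tile (exact test, adjusted p = 9.58e-15) and was 0.17 points above late NCCs in the second. At single CpGs of the first tile, melanophores had 33.3% at 38327427 (18 reads) and 85.5% at 38327454 (62 reads), where iridophores had 16.7% (12 reads) and 19.0% (42 reads).

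Region 4, the exonic solo DAR (38339895 to 38340750, 39 CpGs), was unmethylated in each cell type. Methylated reads made up 0.853% in iridophores, 0.947% in melanophores, 1.02% in late NCCs and 0.831% in early NCCs, on 1684 to 2535 reads. It lies inside a stretch of 2397 bp from 38339473 to 38341869, with enough reads at 44 of its 67 listed CpGs. The tiles starting at 38341001 and 38341501 held 0 such CpGs. In the latter, early NCCs had 0 reads, late NCCs 10 and iridophores 13 (2 of them methylated), so this end was hardly measured. Within region 4, 1 CpG stood out, at 38340119, with 16.7% in iridophores, 12.3% in melanophores, 18.1% in late NCCs and 1.92% in early NCCs, on 52 to 73 reads.

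Further unmethylated stretches lay to the left. The stretch from 38287845 to 38290222 (78 listed CpGs) had 0.496% methylated reads in iridophores, 0.738% in melanophores, 0.673% in late NCCs and 1.10% in early NCCs. The stretch from 38307700 to 38309837 (53 listed CpGs) had 1.11% in iridophores, 0.923% in melanophores, 1.14% in late NCCs and 1.62% in early NCCs. Another, from 38317140 to 38317773, held 5 listed CpGs and 32 to 68 reads, with 1.47% in iridophores, 0% in melanophores, 0% in late NCCs and 3.13% in early NCCs. The iridophore minus late NCC differences of the 4 alx4b stretches ran from -0.18 to 1.47 points with intervals that held 0. In the alx1 stretch the difference was 8.20 points (7.04 to 9.47). The stretches were chosen and bounded by low levels that included late NCCs, so these differences are a description.

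Methylation was gained in iridophores at 3 tiles of the alx4b window that were only partly methylated in NCCs. At 38335001 to 38335500 (13 CpGs), near the centre, the level was 81.0% in iridophores (189 reads), 59.5% in melanophores (303 reads), 37.8% in late NCCs (303 reads) and 39.5% in early NCCs (164 reads), a rise of 43.2 points over late NCCs (exact test, adjusted p = 1.23e-24). At 38299501 to 38300000 (17 CpGs) it was 72.8% in iridophores, 57.5% in melanophores, 42.6% in late NCCs and 50.1% in early NCCs, a rise of 30.2 points. At 38297001 to 38297500 (3 CpGs) it was 55.6% in iridophores, 41.0% in melanophores, 21.8% in late NCCs and 51.4% in early NCCs, so iridophores stood near early NCCs. The tile before the first of these, 38334501 to 38335000, had 76.4% in iridophores, 59.97% in melanophores, 47.6% in late NCCs and 46.0% in early NCCs, and its 28.8 points fell short of a call. In these tiles melanophores lay between iridophores and late NCCs. The count of 3 rises was 1 with tiles shifted by 250 bp and 1 with a minimum of 40 points.

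Between the NCC stages, 1 tile was called, at alx4b. Late NCCs were called lower than early NCCs at 0 of 127 alx1 tiles and 0 of 123 alx4b tiles (background 0.0894%). At so low a background, 0 does not show a lack of falls. The lowest tile differences were -27.8 points at alx1 and -29.5 points at alx4b, just short of 30 points. At an adjusted p under 0.05 but with no minimum difference, 8 alx1 tiles (6.30%) and 13 alx4b tiles (10.6%) differed, against 3.83% of all tiles, and late NCCs were lower in 8 of the 8 and 8 of the 13. This split was not counted over the genome, where 61.9% of all tiles were lower in late NCCs by any amount. The 1 tile called higher in late NCCs (0.813% of alx4b tiles, background 0.0217%) was 38337501 to 38338000. It had 69.6% in late NCCs (35 reads) and 20.2% in early NCCs (25 reads) over 4 CpGs. Iridophores had 45.4% there and melanophores 47.4%.

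The calls rest on tiles, so single CpGs were also counted. CpGs above 80% in melanophores and both NCC libraries and below 20% in iridophores numbered 21 of 1057 at alx1 (1.99%) and 13 of 1100 at alx4b (1.18%), against 0.0833% of all CpGs. The converse, below 20% in melanophores alone, was found at 0 CpGs of either window, against 0.0137% of all CpGs. At so low a share, 0 among 1057 and 1100 CpGs does not show a lack of such CpGs. CpGs below 20% in both pigment cells and above 80% in both NCC libraries numbered 3 at each gene (0.284% and 0.273%, against 0.127%). An example at alx1 was 16207357, in the tile at 16207001 that was called lower in melanophores, with 10.5% in iridophores (19 reads), 14.3% in melanophores (21 reads), 92.9% in late NCCs (28 reads) and 100% in early NCCs (13 reads). Its 7 neighbours within 250 bp had median differences from late NCCs of -10.7 points in iridophores and -6.55 points in melanophores.

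The drawn regions of alx1 and alx4b were set beside those drawn at 7 other genes of the pigment network. In iridophores their median levels of 26.5% at alx1 and 18.3% at alx4b stood beside 26.1% at alx4a, the related homeobox gene, 28.6% at tfec and 26.1% at mitfa, which encode MiT/TFE factors of pigment cells, 15.5% at sox10 and 26.4% at foxd3, which encode neural crest specifiers, and 15.5% at ets1 and 16.2% at gbx2. Most of these regions were chosen for low methylation in iridophores, so these levels are a description. They include regions that were already under 30% in early NCCs. Without those, an alternative chosen after seeing the data, the iridophore medians were 25.4% at alx4b, 28.2% at alx4a, 16.1% at ets1 and 32.4% at gbx2. The choice did not use the comparison of melanophores with early NCCs. Its median difference was -22.5 points at alx1, -7.04 points at alx4b, -14.4 points at alx4a, -16.0 points at ets1 and -5.34 points at gbx2. At the other 4 genes it was -34.4 points at tfec, -37.7 points at mitfa, -45.6 points at foxd3 and -59.3 points at sox10. Melanophores were lower by at least 30 points in 3 of 9 regions at alx1 and 0 of 4 at alx4b, and in 4 of 14 at alx4a, 3 of 7 at ets1 and 0 of 4 at gbx2, compared with 7 of 12 at tfec, 4 of 5 at mitfa, 4 of 7 at foxd3 and 6 of 6 at sox10. These counts include regions under 30% in early NCCs, which could not fall by 30 points: 1 at alx4b, 2 at alx4a, 1 at ets1 and 2 at gbx2. Without them the median differences were -14.1 points at alx4b (3 regions), -17.1 points at alx4a, -28.2 points at ets1 and -8.50 points at gbx2, an alternative chosen after seeing the data. With few regions per gene and 1 pooled library per cell type, the order of the genes was not tested.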

How the data were processed

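WGBS of 4 zebrafish cell types was analysed; accessibility and expression samples of the series were not analysed here. Per the study's methods, the authors used Cutadapt for trimming, Bismark for alignment (danRer10) and for methylation extraction, and Picard against duplicates, and combined 2 replicates per cell type; tool versions are not given in the sources used here. As deposited by the authors, each CpG has a methylation level, a fraction of reads, and a read count without normalization. Level times reads was within 0.0044 of a whole number, taken as the methylated reads. Per the study, bisulfite conversion was slightly incomplete in the libraries. It was not corrected for here, so the lowest shares of methylated reads can include unconverted cytosines. The mean coverage of 24.0 to 35.2 reads makes single CpGs imprecise, and a read over several CpGs counts at each, so intervals and p-values are too small.

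CpGs with at least 5 reads in each library were placed in 500-bp tiles. Tests were two-sided Fisher's exact tests with Benjamini-Hochberg adjustment (Python 3.11.15, NumPy 2.4.6, SciPy 1.17.1, numba 0.67.0), checked on simulated data. Named tiles were, per window, the 5 largest falls from late NCCs called in melanophores and in iridophores, the 5 largest called differences between them, the 3 largest rises and runs below 20%; other tiles and CpGs were chosen after their values were seen. Drawn regions were read from a figure of the study, and 1 of its genes is not reported here. Genes with like counts of tiles were not sought, as gene positions in danRer10 were not used. The members and lists were chosen with earlier results of these data known. Alternatives covered the read minimum and maximum, tile position, weighting by reads, minimum difference and the reference. Columns of other samples numbered 0.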

Additional observations from a re-analysis of the deposited data

Results flagged for a closer look

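The change from late NCCs differed between iridophores and melanophores by a direct test of their reads (Fisher's exact test, adjusted over all tiles) at 11 called alx1 tiles and 12 called alx4b tiles, and the 5 largest differences of each window are given here. At alx1 the iridophore minus melanophore difference was -72.8 points at -6.75 kb from the window's centre, -68.3 points at -7.25 kb, -60.7 points at -19.25 kb, -60.05 points at -40.25 kb and -50.3 points at -9.25 kb. At alx4b it was -67.3 points at 6.75 kb, -58.7 points at 6.25 kb, -57.9 points at -8.25 kb, -51.1 points at -9.75 kb and -48.9 points at -49.75 kb. Iridophores were the lower of the pigment cells in each of these 10 tiles. Each cell type has 1 pooled library, so whether these differences hold between replicates was not tested.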

How the results depend on the processing

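Of 60 counts of tiles under an alternative, 47 stayed within 1.5 times the reported count and 13 did not. Shares of all tiles were counted for the reported settings and for early NCCs as the reference, and not for the other alternatives. With a minimum difference of 20 points, alx1 tiles lower than in late NCCs numbered 10 in melanophores (6 reported), those lower in iridophores than melanophores 19 (11 reported), and those lower in late than early NCCs 2 at alx1 and 2 at alx4b (0 reported). With 40 points, tiles lower in melanophores than late NCCs numbered 3 at alx1 and 2 at alx4b (4 reported). With at least 10 reads per CpG, alx4b had 10 tiles lower in iridophores than late NCCs (16 reported) and 6 lower in iridophores than melanophores (12 reported), with 103 tiles tested, and alx1 had 1 lower in late than early NCCs. Tiles shifted by 250 bp gave 2 alx4b tiles lower in melanophores than late NCCs and 1 lower in late than early NCCs. Levels as methylated reads over all reads gave 2 tiles at alx1 and 1 at alx4b lower in late than early NCCs. The 3 alx4b tiles higher in iridophores than late NCCs numbered between 1 and 5 over these settings. At alx1 the count higher in iridophores than late NCCs, 0 as reported, was 1 with a minimum of 1 read or of 20 points. The cause was not tested beyond what each setting removes. Of 208 levels of drawn regions under 4 settings, 191 moved by no more than the distance from the middle of their counting interval to its end. The largest shift was 16.5 points. No paired analysis was possible because the replicates of each cell type were combined in 1 library by the authors, and no replicate was left out for the same reason.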
